A study of Strongylocentrotus purpuratus with 2 samples.

Results

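Motile cilia of the sea urchin embryo are built on an axoneme, a ring of doublet microtubules around a central pair. Axonemal dyneins are the motors that slide neighbouring doublets. Their heavy chains carry the motor activity and are sorted into outer and inner arms. Tektins line the doublets, and radial spokes and the central pair shape the beat. Cilia are assembled by intraflagellar transport (IFT). IFT-B complexes are tied to outward movement by kinesin-2, and IFT-A complexes to the return by cytoplasmic dynein-2. The BBSome, named for Bardet-Biedl syndrome, carries membrane proteins. Rfx transcription factors bind promoters of many cilium genes, and in vertebrates Rfx2 and Rfx3 are needed for normal ciliogenesis.

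The genes described here are transcript models of the purple sea urchin Strongylocentrotus purpuratus, chosen by name. After the species prefix, the name starts with Dnah, Dnai, Dnal (followed by a digit), Dnhc, Dync2, Ift, Bbs, Tekt, Rsph, Spag or Rfx. The rule found 90 models, of which 21 were blank in both libraries and were dropped, leaving 69 of the 12943 models with a value. They fell into 28 dynein heavy chain models, 8 models of other axonemal parts, 26 of transport complexes, 4 of Rfx factors and 3 further Spag-named models. No model name started with Dnai, Dnhc, or Dnal followed by a digit. The intermediate and light chains of axonemal dynein are therefore covered here only by models named otherwise, some of which are described near the end. Names in which a letter follows Dnal were not searched for.

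RNA came from whole embryos at 30 hours after fertilization, raised at 15 °C, with about 1000 embryos behind each library. The sample called the morpholino library below came from fertilized eggs microinjected with a morpholino against soxC, an antisense oligonucleotide that blocks translation or splicing. The glycerol control came from eggs microinjected with glycerol; no library of a control morpholino was analysed here. Each group was 1 library, so there was no measure of spread between samples and no test between conditions, and effects of the morpholino cannot be told apart from any other difference between the samples. All directions rest on the sample labels, and what injection itself does was shared by both libraries. The morpholino library held 4763995 reads and the glycerol control 4414503, recovered from the deposited normalized units.

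Several facts of the whole data set bear on the values that follow. The soxC transcript stood at 38052.2 units in the morpholino library and 10632.2 in the glycerol control. A morpholino need not lower its target's RNA, so that value checks no label. Of 7 lists of germ layer genes, each had at least 1 model above the level floor, and none of the 31 models with a value was at 0 in both libraries. The ciliary band list was represented by Otx alone, with 10 reads in the morpholino library and 25 in the glycerol control, since hnf6 was blank. The medians of these lists, as log2 ratios relative to all models, ran from -1.13 for the ciliary band to 0.59 for pigment and blastocoelar cells; their part in the results on cilium genes was not tested. In whole embryos, fewer cells of a type and less RNA per cell cannot be told apart.

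Ratios below are the morpholino library over the glycerol control on the deposited scale, with an exact Clopper-Pearson 95% interval from the reads in parentheses, which covers counting error only. The level floor was a mean of 1 CPM, reads scaled to a common library total, and 8819 models passed it. Their median log2 ratio was -0.21, a ratio of 0.866, with quartiles at -0.49 and 0.05. A cilium gene that moved with the bulk of the transcripts would therefore have a ratio of 0.866, not 1. The read sum of all models gave a ratio of 1.04, and 0.894 without WHL22.598028.0, the model with the most reads. The part of that model in the low median was not tested. The size rule called a model higher or lower when it passed the floor, differed at least 2-fold and had an interval that excluded a ratio of 1. By that rule 0.658% of all models were higher and 4.75% were lower. Of the 69 cilium models, 43 passed the floor. Among them 0 were higher, 2 were lower and 41 met neither direction. The other 26 had between 1 and 9 reads over both libraries, and their ratios have wide counting intervals.

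The cilium genes as a whole kept close to the rest of the transcripts, and the Rfx models were the lowest class with at least 3 models above the floor. The median log2 ratio of the 43 cilium models was -0.11, against -0.21 for all models. By class, the median was 0.10 for heavy chains, -0.29 for other axonemal parts, -0.14 for transport complexes and -1.05 for Rfx. Only 20 of the cilium models had at least 100 reads over both libraries. Their median was -0.13, against -0.18 for the 4567 models of that depth. Reads were concentrated in few models: Sp-Tektin-3, Sp-Tektin-2 and Sp-rsph3 held 63.8% of the 25542 reads of all 69. No transcript lengths were at hand, so levels are compared between libraries and never between genes.

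**Figure D1:**
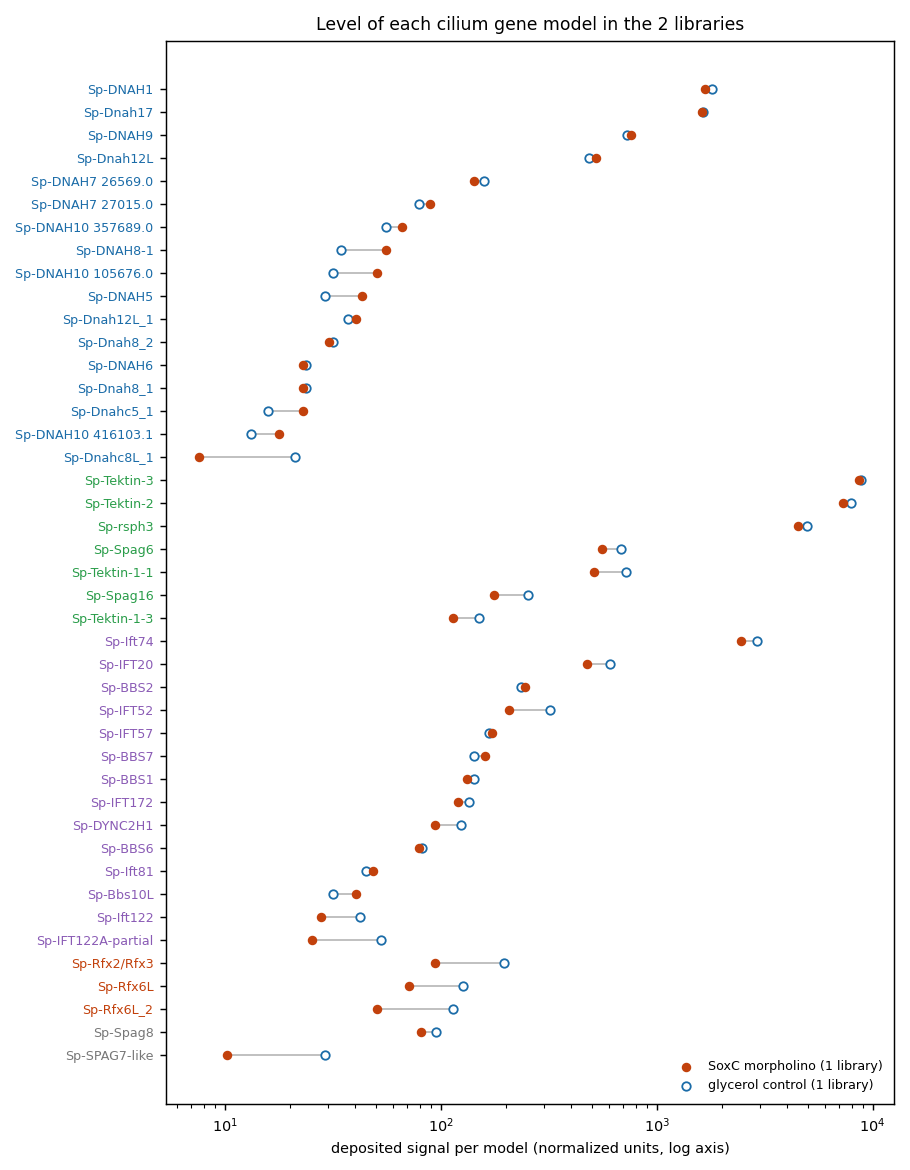
Deposited signal in normalized units on a log axis for the 43 cilium gene models above the level floor, in the morpholino library (filled) and the glycerol control (open), 1 library each, with no error bars because there were no replicates. Names are coloured by class, in the order heavy chains, other axonemal parts, transport complexes, Rfx and other Spag-named genes; the 3 Rfx models lie lower in the morpholino library, and the models with the most signal nearly coincide.

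The 3 Rfx models above the floor had log2 ratios below 0 on the deposited scaling and on each of the other scalings run, total reads, median of ratios and upper quartile. The model that carries the names Sp-Rfx2 and Sp-Rfx3 (WHL22.19679.1) had 94.1 units in the morpholino library, against 195.9 in the glycerol control. Those units stand for 37 and 74 reads, a ratio of 0.48 (0.315 to 0.722). The names belong to separate vertebrate cilium regulators, but in these tables they share 1 model, so their reads cannot be separated. Sp-Rfx6L_2 (WHL22.76476.0) had 50.9 units in the morpholino library and 113.8 in the glycerol control. Its 20 and 43 reads gave a ratio of 0.447 (0.249 to 0.776). In vertebrates Rfx6 is known for its role in pancreatic islet cells. The same model also carries the name of a hypothetical protein, Sp-Hypp_681.

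These were the 2 cilium models called lower by the size rule, and both sit near its edge. Sp-Rfx6L (WHL22.48072.0), at 71.2 units in the morpholino library and 127.1 in the glycerol control, lay just outside it. Its ratio was 0.56 (0.339 to 0.912), from 28 and 48 reads. Sp-Rfxc1l had 0 reads in the morpholino library and 4 in the glycerol control, so its ratio could lie anywhere up to 1.46, and it was below the floor. The model named Sp-Rfx1L and Sp-Rfx4L was blank. Summed over the 4 measured models, Rfx transcripts had 85 reads in the morpholino library and 169 in the glycerol control, a ratio of 0.483 (0.368 to 0.631). Without the Rfx2 and Rfx3 model the sum gave 0.485 (0.336 to 0.694).

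Whether the Rfx models meet the size rule depends on the scaling, while their distance from the median of all models does not. Once the libraries were scaled so that the median model had a ratio of 1, 1.55% of all models were higher and 2.38% lower by the size rule, and of the cilium models 0 were higher and 0 lower. On that scaling the median log2 ratio of Rfx was -0.84, short of 2-fold but still below 0. The counting intervals of Sp-Rfx2/Sp-Rfx3 and Sp-Rfx6L_2 lay wholly below the median ratio of 0.866, while that of Sp-Rfx6L reached past it.

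Transcripts of the axonemal dynein heavy chains stood at similar levels in the libraries. Of the 17 heavy chain models above the floor, 16 had a ratio above the median ratio of 0.866 and 1 below it, and none met the size rule in either direction. Summed over all 28 measured heavy chain models there were 2069 reads in the morpholino library and 1990 in the glycerol control. The ratio of these sums was 0.999 (0.939 to 1.06). Without Sp-DNAH1, which held the most reads, it was 1.04 (0.961 to 1.12). The median of the class lay 0.31 above that of all models on the log2 scale. That distance was smaller among the 5 heavy chain models with at least 100 reads, whose median log2 ratio was -0.01, against -0.18 for all models of that depth.

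The heavy chains with most reads were measured most closely. Sp-Dnah17, named for an outer arm heavy chain in humans, stood at 1622.9 units in the morpholino library and 1630.8 in the glycerol control. Its ratio was 0.995 (0.889 to 1.11). Sp-DNAH1, named for an inner arm heavy chain, had 1678.9 units in the morpholino library and 1810.9 in the glycerol control, a ratio of 0.927 (0.832 to 1.03). For each of these models a 2-fold difference lies outside the counting interval. Sp-DNAH9, another outer arm name, had 758.0 units in the morpholino library and 728.0 in the glycerol control, a ratio of 1.04 (0.881 to 1.23). The model named Sp-Dnah12L and Sp-Dnahc2L, both inner arm names, had 524.0 units in the morpholino library and 487.1 in the glycerol control, a ratio of 1.08 (0.877 to 1.32).

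**Figure D2:**
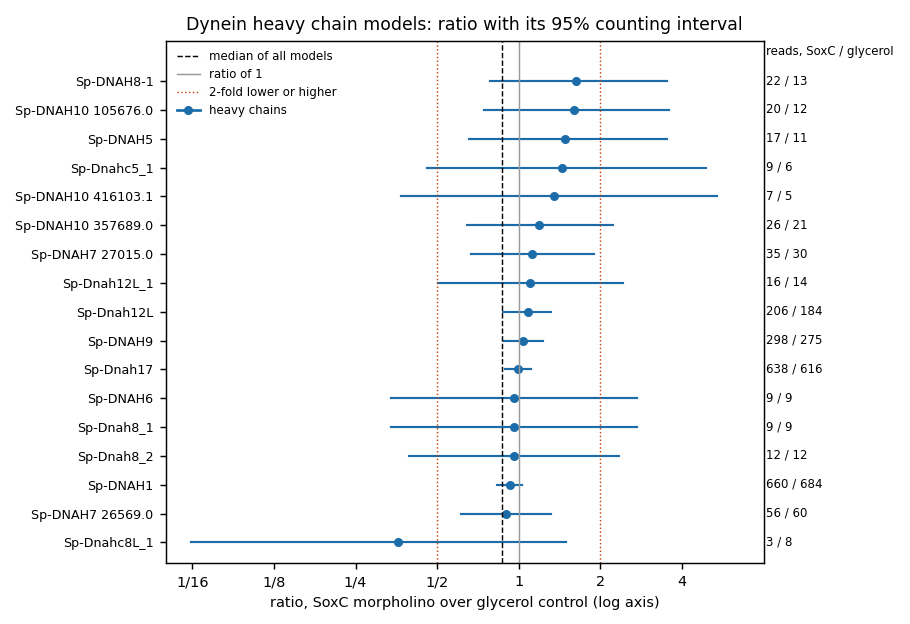
Ratio of the morpholino library over the glycerol control for the 17 heavy chain models above the level floor, on a log axis, with bars for the 95% counting interval and the reads of each library at the right. All points but Sp-Dnahc8L_1 lie to the right of the dashed median of all models (0.866), and every interval but those of Sp-DNAH9, Sp-Dnah17 and Sp-Dnah12L includes it; models that share a name carry their model number.

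Most heavy chains were split over models with few reads. Sp-DNAH10, an inner arm name, had 4 models, of which 3 passed the floor with ratios between 1.19 and 1.6. Their reads summed, with the model below the floor, to 54 in the morpholino library and 39 in the glycerol control, a ratio of 1.33 (0.865 to 2.06). The 2 Sp-DNAH7 models, also inner arm, lay on either side of 1, at 0.897 (0.612 to 1.31) and 1.12 (0.669 to 1.89). Whether these pieces belong to 1 gene or to near-identical copies is not known, so they are not independent measurements of it.

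Among heavy chain models above the floor, Sp-DNAH8-1, an outer arm name with few reads, had the highest ratio. It had 56.0 units in the morpholino library and 34.4 in the glycerol control, from 22 and 13 reads, and a ratio of 1.63 (0.784 to 3.51). The lowest above the floor was Sp-Dnahc8L_1, at 7.6 units in the morpholino library and 21.2 in the glycerol control. With 3 and 8 reads its ratio was 0.36 (0.0616 to 1.5), and it passed the floor only through the glycerol control. At this depth neither difference from the median was detectable. Taken by name, 8 outer arm models above the floor had a median log2 ratio of 0.03 and 9 inner arm models one of 0.13. The read sums gave 1.03 (0.939 to 1.12) for outer and 0.976 (0.894 to 1.06) for inner arm names, intervals that overlap.

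The other axonemal parts held the most reads of any class, and their read sum differed little between the libraries. Summed over 8 models they had 8602 reads in the morpholino library and 8905 in the glycerol control, a ratio of 0.928 (0.901 to 0.956). Without Sp-Tektin-3 the sum gave 0.899 (0.865 to 0.933). Most of these reads came from Sp-Tektin-3, Sp-Tektin-2 and Sp-rsph3. Of the 7 models above the floor, 4 had a log2 ratio below the median of all models. None met the size rule. Sp-Tektin-3 had 8661.5 units in the morpholino library and 8863.7 in the glycerol control, a ratio of 0.977 (0.931 to 1.03). Sp-Tektin-2 had 7326.0 units in the morpholino library and 7905.3 in the glycerol control, a ratio of 0.927 (0.88 to 0.976). Both tektins lay below a ratio of 1 as deposited, yet above the median of all models. Sp-rsph3, a radial spoke protein, had 4527.9 units in the morpholino library and 4993.1 in the glycerol control, a ratio of 0.907 (0.849 to 0.968).

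The tektin models did not move alike. The model named Sp-Tektin-1-1 and Sp-Tektin-1-2 had 511.3 units in the morpholino library and 717.5 in the glycerol control. Its ratio was 0.713 (0.591 to 0.858), from 201 and 271 reads, and this interval does not overlap those of Sp-Tektin-2 and Sp-Tektin-3. Sp-Tektin-1-3, another tektin-1 name, had 114.5 units in the morpholino library and 150.9 in the glycerol control, a ratio of 0.759 (0.501 to 1.14). Tektins are filament proteins that run along the doublet wall. In the central pair, Sp-Spag16 had 175.5 units in the morpholino library and 254.2 in the glycerol control, and its ratio of 0.691 (0.499 to 0.951) was the lowest of the class. Sp-Spag6, with 559.6 units in the morpholino library and 685.7 in the glycerol control, had a ratio of 0.816 (0.679 to 0.981). Sp-Spag17 had 2 reads in each library.

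Transport complex transcripts spread to both sides of the median of all models. Of 14 models above the floor, 8 had a log2 ratio higher than the overall median and 6 a lower one, and none met the size rule. Summed over 26 models there were 1702 reads in the morpholino library and 1929 in the glycerol control, a ratio of 0.848 (0.794 to 0.905). Sp-Ift74 held most of these reads. IFT74 helps IFT-B bind tubulin, and its model had 2462.4 units in the morpholino library and 2906.9 in the glycerol control. Its ratio was 0.847 (0.776 to 0.924), and without it the sum gave 0.849 (0.767 to 0.938). The class median of -0.14 as deposited became 0.07 with the median of ratios and 0.02 with the upper quartile, so no direction is given for the class.

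Within IFT-B, 6 models passed the floor. The lowest of these was the model named Sp-IFT52, a core subunit, and Sp-Mak10, with 206.0 units in the morpholino library and 320.3 in the glycerol control. Its ratio was 0.643 (0.479 to 0.859), from 81 and 121 reads, and its interval lay just below the median ratio. Which share of the reads belongs to Sp-Mak10 is not known. Sp-IFT20, a small subunit that also sits at the Golgi in mammals, had 473.1 units in the morpholino library and 606.3 in the glycerol control, a ratio of 0.78 (0.64 to 0.951). The other 3 lay closer to 1: Sp-IFT57 at 1.04 (0.725 to 1.48), Sp-Ift81, the partner of IFT74, at 1.07 (0.529 to 2.2), and Sp-IFT172 at 0.885 (0.583 to 1.34).

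By the member names, IFT-A and dynein-2 were thinly covered. Sp-IFT122A-partial, named for an IFT-A subunit, had 25.4 units in the morpholino library and 52.9 in the glycerol control. That is the lowest ratio of the transport models above the floor, 0.48 (0.201 to 1.08), from 10 and 20 reads, and the interval includes 1. Sp-Ift122, with the same subunit name, was at 0.661 (0.277 to 1.52). Sp-DYNC2H1, the dynein-2 heavy chain, had 94.1 units in the morpholino library and 124.4 in the glycerol control, a ratio of 0.756 (0.478 to 1.19). Sp-Dync2h1-3 had 1 read in the morpholino library and 6 in the glycerol control, a ratio of 0.16 (0.00348 to 1.32), and was below the floor. All 3 models above the floor with these IFT-A and dynein-2 names thus had ratios under 0.866, but each interval includes that value. IFT-A subunits named otherwise fell on both sides of it. Sp-Wdr35 was at 0.899 (0.617 to 1.31), from 58 reads in the morpholino library and 62 in the glycerol control. Sp-Ttc21b was at 0.611 (0.289 to 1.25), from 14 reads in the morpholino library and 22 in the glycerol control. Sp-Wdr19 was at 0.412 (0.0687 to 1.8), from 3 and 7 reads, and passed the floor only through the glycerol control. Each of these intervals includes 0.866 too.

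BBSome and related models lay on the other side. All 5 BBS models above the floor had ratios above the median ratio, but each interval includes that value. The BBS sum was 272 reads in the morpholino library and 254 in the glycerol control. The ratio was 1.03 (0.864 to 1.23), against 0.831 (0.773 to 0.894) for the IFT-B sum, and these intervals overlap. Sp-BBS2, a BBSome core subunit, had 246.7 units in the morpholino library and 235.6 in the glycerol control, a ratio of 1.05 (0.777 to 1.41). Sp-BBS7 was at 1.12 (0.767 to 1.64), Sp-BBS1 at 0.925 (0.62 to 1.38) and Sp-BBS6, a chaperonin-like assembly factor, at 0.961 (0.565 to 1.63). The highest ratio among the 5 BBS models above the floor was that of Sp-Bbs10L, 1.28 (0.569 to 2.97), from 16 and 12 reads. Models of BBS4, BBS5, BBS8 and BBS9 had too few reads to pass the floor.

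**Figure D3:**
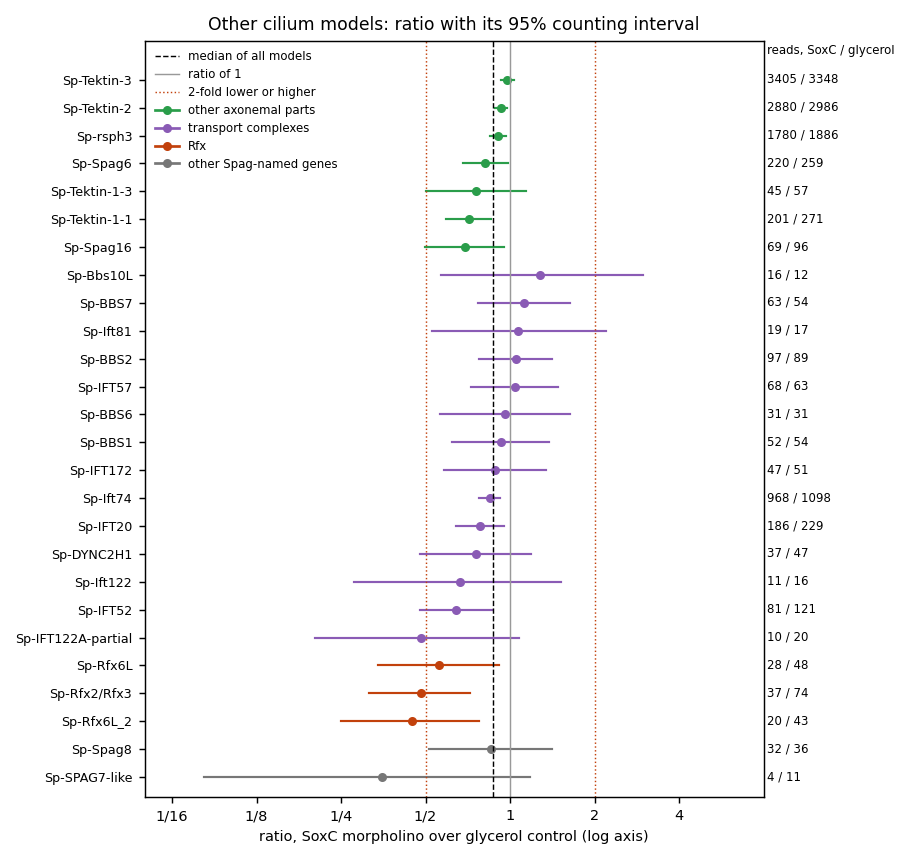
Ratio of the morpholino library over the glycerol control for the 26 other cilium models above the level floor, on a log axis, coloured by class, with bars for the 95% counting interval and the reads of each library at the right. The 3 Rfx points lie at 0.56 and below, Sp-Tektin-3 and Sp-Tektin-2 sit tightly to the right of the dashed median (0.866), and most transport models overlap it.

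The remaining Spag-named models were kept apart because the name also covers proteins that are not parts of the axoneme. Sp-Spag8 had 81.4 units in the morpholino library and 95.3 in the glycerol control, a ratio of 0.854 (0.514 to 1.41). Sp-SPAG7-like had 4 reads in the morpholino library and 11 in the glycerol control, a ratio of 0.349 (0.0811 to 1.18). This model, like Sp-Dnahc8L_1, passed the floor only through the glycerol control, and these were the 2 models of the name rule of which that is true. Sp-Spag1, named for a dynein arm assembly factor, had 3 reads in the morpholino library and 5 in the glycerol control.

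Counting intervals were also set against the median ratio, with no minimum fold. Among all models 12.4% had an interval wholly above it and 10.2% wholly below it. Of the 43 cilium models, 5 lay wholly above: Sp-DNAH9, Sp-Dnah12L, Sp-Dnah17, Sp-Tektin-2 and Sp-Tektin-3. The 4 wholly below were Sp-Rfx2/Sp-Rfx3, Sp-Rfx6L_2, Sp-IFT52 and Sp-Tektin-1-1. In both directions the share of cilium models is near that of all models, so no result about cilium genes is read from these counts. Of the heavy chains above the floor, 3 lay above and 14 overlapped the median ratio. For Rfx, 2 lay below and 1 overlapped it, and the tektins split, with 2 above and 1 below. This rule reaches small differences only in models with many reads, since their intervals are narrow. Sp-Rfx6L_2 lay below with 63 reads over both libraries, while Sp-DNAH1 overlapped the median ratio with 1344.

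**Figure D4:**
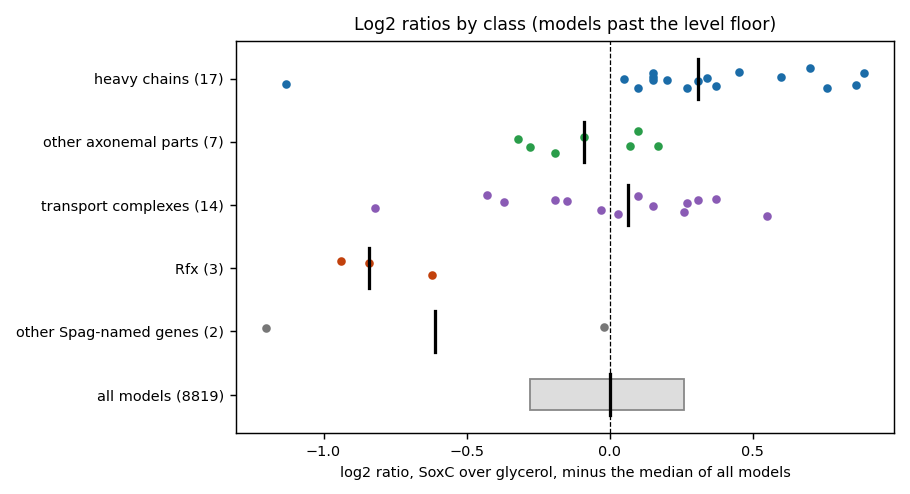
Log2 ratio of the morpholino library over the glycerol control, minus the median of all models, for each cilium model above the level floor, by class, with the number of models in brackets and a black bar at the class median. The grey box spans the quartiles of all 8819 models; the heavy chain median is 0.31 and the Rfx median -0.84, while the transport median of 0.06 lies near 0 and is negative on the deposited scale.

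Genes of the same pathway outside the name rule were taken from a list of other cilium, basal body and docking genes. Of 77 such models with a value, 56 passed the floor, and 0 were higher and 0 lower by the size rule. Their median log2 ratio was -0.18, against -0.21 for all models. With names that only share their first letters left out, 50 passed the floor and the median was -0.17. Sp-FoxJ1, the forkhead factor that switches on motile cilium genes in vertebrates, had 2075.7 units in the morpholino library and 2438.3 in the glycerol control. Its ratio of 0.851 (0.774 to 0.936) lies close to the median ratio of 0.866, unlike the Rfx2 and Rfx3 model. The central pair gene Sp-Hydin had 508.8 units in the morpholino library and 590.4 in the glycerol control on its larger model, a ratio of 0.862 (0.708 to 1.05), and 0.824 (0.348 to 1.92) on the smaller.

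The kinesin-2 motor that carries IFT-B outward was measured through Sp-KIF3A-like, with 297.6 units in the morpholino library and 307.1 in the glycerol control, a ratio of 0.969 (0.743 to 1.26). Sp-Kif3a was at 0.873 (0.333 to 2.27), and the Kif3b-named models were below the floor. Several further models of the list were picked out after their values had been seen. Sp-ARL13b-LIKE, named for a small GTPase of the ciliary membrane, came closest to the size rule among those whose interval excluded 1, with 142.5 units in the morpholino library and 280.6 in the glycerol control. Its ratio was 0.508 (0.36 to 0.708). Sp-Mns1, an axonemal protein, had 801.3 units in the morpholino library and 1321.1 in the glycerol control, a ratio of 0.607 (0.525 to 0.7). Sp-Ccdc151, an outer arm docking factor, was at 0.657 (0.518 to 0.83). On the other side, Sp-Nme5 had 2826.1 units in the morpholino library and 2274.2 in the glycerol control, a ratio of 1.24 (1.14 to 1.36). Sp-Armc4, also a docking factor, was at 1.14 (1.03 to 1.26). For the smaller chains of the outer arm, Sp-ODA-IC1-like, an intermediate chain name, had 854.7 units in the morpholino library and 1093.4 in the glycerol control, a ratio of 0.782 (0.675 to 0.905). Sp-ODA-LC7-like1, a light chain name, had 2800.7 units in the morpholino library and 2642.2 in the glycerol control, a ratio of 1.06 (0.972 to 1.16).

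Blank models were about as frequent among cilium genes as elsewhere, at 23.3% of the 90 named models against 25.1% of all 17269. Among the transport complexes, 6 of 15 IFT-B models, 2 of 4 IFT-A models, 2 of 5 dynein-2 models and 0 of 12 BBS models were blank. These counts rest on few gene names that stand on several models: 4 of the 6 blank IFT-B models are named Sp-IFT172, both blank IFT-A models Sp-IFT140 and both blank dynein-2 models Sp-DYNC2H1. Sp-IFT140 had no model with a value, so that IFT-A subunit was not measured. A blank is a missing value and not a level of 0.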

How the data were processed

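RNA sequencing values came from 1 library per group, grouped by sample title. The authors deposited a normalized signal per transcript model; per the submitters' processing notes, CASAVA 1.8 and Bowtie were used. Not given in the sources used here are the Bowtie version, the counting and strand rules, the normalization and the build. Each table has 24565 rows for 17269 models. A model on several rows was used once, and 25 of the 69 cilium models stood on several. Deposited signal values were whole multiples of 2.54 units in the morpholino library and 2.65 in the glycerol control, within 0.1 reads for 99.992% and 99.977% of models, so reads were recovered by division. The planned test for counts was not possible with 1 library per group, and the deposited scaling was kept.

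For log2 ratios 0.5 reads were added to each library, which shrinks the ratios of thinly covered models; plain ratios had no pseudocount. Interval bounds of sums treat reads as independent molecules, which is not known. The script was tested on simulated data. Python 3.11.15, numpy 2.4.6, pandas 2.3.3 and scipy 1.17.1 were used.

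The members, classes and lists were chosen with earlier results of these data known. Named genes were those meeting the size rule, the highest, lowest and most-read model of each class, every Rfx model, models with at least 1000 reads, and FoxJ1, hnf6, Kif3 and Hydin names; any others were chosen after their values were seen, as was the split by arm and complex. No identifier or name of the 69 models matched the RefSeq name table at hand, so no positions or sequences are given. Alternatives were other scalings, floors, folds and pseudocounts, models with 1 name only, and the fold alone.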

Additional observations from a re-analysis of the deposited data

How the results depend on the processing

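The count of 2 lower cilium models rests on the scaling and the fold. It was 0 with the median of ratios, 1 with the upper quartile (Sp-Rfx6L_2), 4 at 1.5-fold, 0 at 3-fold, 5 by the fold alone and 0 among models with 1 gene name only, since both called models carry several names. Total reads, no floor and a floor of 5 CPM gave 2. The count of higher models was 0 under each of these alternatives. Intervals set against the median ratio, an alternative chosen after the data were seen, gave 5 higher and 4 lower. Among all models that rule gave 12.4% higher and 10.2% lower. For the other cilium list the lower count was 0 but became 1 with total reads, 7 at 1.5-fold and 3 by the fold alone. Setting the median model to a ratio of 1, close to the median of ratios, gave 1.55% higher and 2.38% lower among all models. The share of all models called was not computed for the other folds, floors and scalings listed here. The counts under those settings therefore cannot be read as more or fewer than among all models. Class medians stayed within the median of their models' counting intervals under each alternative, which shows little where those are wide: from -0.64 to 1.23 for heavy chains. The Rfx median ran from -1.10 to -0.82, the heavy chain median from -0.01 to 0.31. The median of ratios moved 6 of 43 single log2 ratios outside their counting interval, the upper quartile 5, each in models with over 1000 reads, while total reads and the pseudocounts of 0.1 and 2 moved 0. With 1 library per group, no library could be left out. No paired analysis was possible because there was a single library in each group.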

Other observations

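Cytoplasmic dynein 1, the motor that moves cargo along microtubules of the cell body, is outside the cilium name rule. Of its 3 models with a value, 2 passed the level floor and neither met the size rule. Sp-DYNC1LI2, a light intermediate chain, had 1520 reads in the morpholino library and 1520 in the glycerol control, a ratio of 0.961 (0.894 to 1.03) on the deposited scale. The heavy chain SP-DYNC1H1 had 34 reads in the morpholino library and 26 in the glycerol control, a ratio of 1.26 (0.732 to 2.18). The models named Sp-KRP85 and Sp-KRP95, after sea urchin kinesin-2 subunits, had at most 2 reads in either library. Sp-KIF3A-like, also a kinesin-2 name, had 117 reads in the morpholino library and 116 in the glycerol control.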
